A study of Homo sapiens with 4 samples.

Results

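The miRNA profile of HepG2 cells exposed for 2 h to 40 µM berberine chloride was compared with that of HepG2 cells exposed for 2 h to 0.08% DMSO. HepG2 is an established human hepatoma line, and berberine is a plant alkaloid that was dissolved in DMSO before use, so both cultures received DMSO. Each of the 2 conditions was read on 1 single-colour Agilent human miRNA array, and the comparison therefore used 2 of the 4 arrays of the series. The other 2 arrays held the same conditions after 4 h, and they entered the choice of miRNAs for the scaling and are quoted where a value at 2 h needs a neighbour. With 1 array per condition no test could be made, and every error given here is one of measurement, with the spread between cultures unknown.

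The array files listed 851 human miRNAs, of which 235 were detected in control cells and 199 in berberine-treated cells at 2 h. A total of 197 were detected on both arrays and 614 on neither. For 196 of the 197, at least 1 probe lay above 3 times its own error on both arrays, and the summed signal of those same probes was compared. The remaining miRNA, hsa-miR-548d-5p, was detected by different probes on the 2 arrays and has no ratio here. The berberine array was dimmer, with a 75th percentile over the miRNAs detected on all 4 arrays of 169 against 243 scanner units, which is 0.695 times the control. Each log2 ratio was scaled by this factor, and ratios called unscaled were not. The profile was set beside lists of marker miRNAs, which speak to cell types and cannot show which cell line was used. All 5 of the hepatocyte and hepatoma list were detected on both arrays, as were all 5 of the epithelial list, whereas none of the 6 blood, 4 muscle and 2 endothelial miRNAs was. Of the neuronal list 1 of 4 was detected, miR-128, and of the mesenchymal list 2 of 5, miR-145 and miR-199a-3p, on both arrays in each case. miR-122, the liver miRNA, measured 31.5 in control and 22.4 in berberine-treated cells, a scaled log2 ratio of 0.03 (SE 0.22).

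A miRNA gene is transcribed into a hairpin that is cut into a short duplex. One strand of it, the guide, is usually kept by an Argonaute protein, and the other, the passenger strand, is usually degraded. In the naming of these arrays a passenger strand often carries an asterisk, so that hsa-miR-21* is the strand now called miR-21-3p and hsa-miR-21 is miR-21-5p. A mature miRNA recognises its target mRNAs mainly through bases 2 to 8, the seed, and miRNAs with the same seed form a family that can pair with the same sites. Many miRNA genes lie in genomic clusters that are transcribed together, so cluster members share a primary transcript while often differing in seed.

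The mature sequences that carry the comparison are given here from RefSeq (GRCh38.p14), with the seed in capitals. miR-21-5p, the guide strand of the hairpin whose other arm had the highest ratio of the comparison, lies at chr17:59841273-59841294 on the plus strand, inside VMP1, a protein-coding gene.
hsa-miR-21-5p: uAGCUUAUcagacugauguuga
The miR-181 family is shown because its summed ratio was the highest of the families with at least 3 measured members. miR-181a and miR-181b are listed at chr1:198859108-198859130 and chr1:198858925-198858947 on the minus strand, within the lncRNA gene MIR181A1HG, and miR-181c and miR-181d at chr19:13874725-13874746 and chr19:13874910-13874932 on the plus strand. miR-181a and miR-181b each have a further gene, MIR181A2 and MIR181B2.
hsa-miR-181a-5p: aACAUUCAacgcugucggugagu
hsa-miR-181b-5p: aACAUUCAuugcugucggugggu
hsa-miR-181c-5p: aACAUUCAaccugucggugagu
hsa-miR-181d-5p: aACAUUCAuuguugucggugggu
The mature miRNAs of the MIR17 to MIR92A1 cluster on chromosome 13, within the lncRNA gene MIR17HG, are shown because 1 cluster holds 4 different seeds. Of these, miR-19b and miR-92a are also made from a cluster on the X chromosome.
hsa-miR-17-5p: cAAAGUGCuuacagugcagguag
hsa-miR-18a-5p: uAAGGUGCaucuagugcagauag
hsa-miR-19a-3p: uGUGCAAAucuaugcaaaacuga
hsa-miR-20a-5p: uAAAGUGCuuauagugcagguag
hsa-miR-19b-3p: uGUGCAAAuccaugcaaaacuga
hsa-miR-92a-3p: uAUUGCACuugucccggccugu
The second and the lowest families by summed ratio, among those with at least 3 measured members, were miR-320, the family of miR-99 and miR-100, and the family of miR-200b, miR-200c and miR-429.
hsa-miR-320b: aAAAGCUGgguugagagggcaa
hsa-miR-320c: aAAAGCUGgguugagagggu
hsa-miR-320d: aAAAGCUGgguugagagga
hsa-miR-99a-5p: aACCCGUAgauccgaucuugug
hsa-miR-99b-5p: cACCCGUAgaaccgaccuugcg
hsa-miR-100-5p: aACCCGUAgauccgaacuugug
hsa-miR-200b-3p: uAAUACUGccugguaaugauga
hsa-miR-200c-3p: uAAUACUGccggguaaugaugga
hsa-miR-429: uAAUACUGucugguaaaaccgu

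Most miRNAs of HepG2 cells had nearly the same scaled signal with and without berberine after 2 h. The scaling takes out any change common to most miRNAs, so such a change cannot be seen in these ratios. Without scaling, the median fold of berberine over control was 0.70. Over the 196 miRNAs measured, the median scaled log2 ratio of berberine over control was 0.012, with quartiles of -0.06 and 0.20, and 135 of the 196 (68.9%) lay within 0.15 of 0. A 2-fold difference, the boundary named in the study's methods, was passed upward by 3 miRNAs (1.53%) and downward by 0 (0%). A ratio was taken as beyond its error where the 95% range from its SE left out 0, which held for 16 miRNAs upward (8.16%) and 1 downward (0.51%). Without miR-21-3p the middle 95% of the ratios ran from -0.18 to 0.61, so the upper tail was the longer one. Between the control arrays of 4 h and 2 h, where no berberine was present, 0 of 217 miRNAs (0%) differed by more than 2-fold, and the middle 95% ran from -0.33 to 0.40. The spread of the ratios depended on the signal. With the miRNAs split by signal into 4 groups of 49, the SD was 0.35 in the dimmest group, 0.41 in the second (0.21 without miR-21-3p), 0.12 in the third and 0.17 in the brightest. The median ratio was 0.23 in the dimmest group and -0.03 in the brightest. Probes had to pass their limit on both arrays, and the berberine array was the dimmer one. A dim miRNA whose probes fell below the limit on the berberine array has no ratio here. The part of this rule in the upper tail and in the dimmest group was not tested.

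The errors of the software were wide beside the data. The median SE of a log2 ratio was 0.18. For the 145 miRNAs with 2 shared probes, the log2 ratios of the 2 probes differed with an SD of 0.16, which was 0.33 of what those errors predict. Probes of 1 miRNA share the same RNA and the same array, so this spread holds no variation between cultures.

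miR-21-3p was the miRNA that stood apart. Its signal was 27.1 ± 2.60 (error of the software) in control cells and 113 ± 8.58 in berberine-treated cells, and the scaled log2 ratio was 2.59 (SE 0.18). Both of its probes carried 8 spots on each array. In percent of the array's 75th percentile, the spots of its first probe lay between 5.51 and 7.50 in control cells and between 42.7 and 51.9 in berberine-treated cells, without spots marked as outliers. Those of the second probe lay between 13.7 and 17.2 in control cells and between 72.3 and 85.2 with berberine. No control spot reached a berberine spot at either probe. In RNA from a whole culture, more cells with the miRNA and more of it in each cell cannot be told apart. Its partner miR-21-5p, one of the best known miRNAs of tumour cells, measured 11833 ± 861 in control and 8108 ± 591 in berberine-treated cells, a scaled log2 ratio of -0.02 (SE 0.15).

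**Figure D1:**
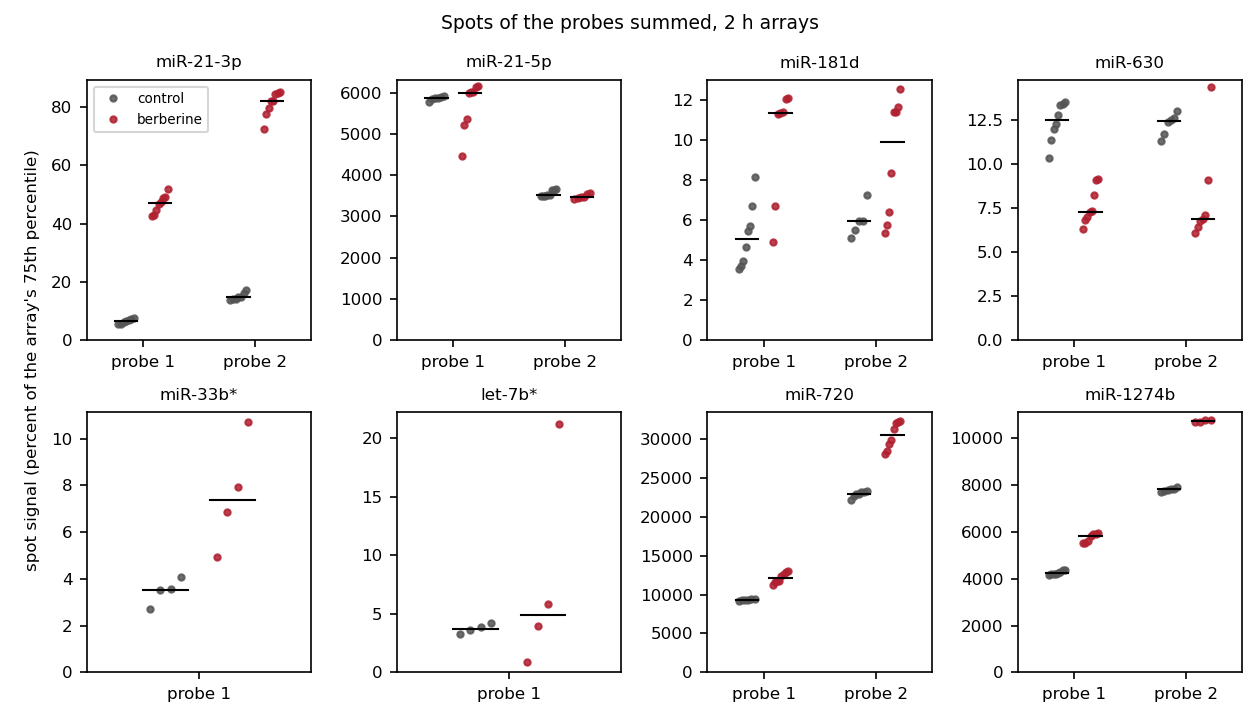
Each point is 1 spot of a probe on the 2 h control array (grey) or the 2 h berberine array (red), in percent of that array's 75th percentile, with a line at the median of the spots and without outlier spots. The grey and red spots of miR-21-3p lie far apart at both probes, those of miR-720 and miR-1274b are separated by a smaller step, those of miR-21-5p, miR-181d, miR-630 and let-7b* overlap at 1 probe or more, and those of miR-33b*, with 1 probe, do not overlap.

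The other 2 miRNAs past 2-fold were passenger strands by name and lay near the limit of detection. miR-33b*, from a hairpin within the gene SREBF1, measured 2.18 ± 0.602 in control and 3.37 ± 0.861 in berberine-treated cells, a log2 ratio of 1.16 (SE 0.54). let-7b* measured 2.36 ± 0.608 and 3.53 ± 0.930, a log2 ratio of 1.11 (SE 0.53). Each ratio rested on 1 of 4 probes. The 4 berberine spots of the miR-33b* probe, between 4.94 and 10.72 percent of the 75th percentile, lay above its 4 control spots, between 2.73 and 4.06. For let-7b* a single berberine spot reached 21.2 while the lowest was 0.891, below every control spot. With the total signals as deposited, which sum more probes on the control array, both ratios turned negative, to -0.46 for miR-33b* and -0.99 for let-7b*. The guide strand of the same hairpin, let-7b, measured 23.5 ± 2.31 and 20.2 ± 2.67, a log2 ratio of 0.31 (SE 0.24). The other arm of the miR-33b* hairpin, miR-33b, has no ratio here.

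**Figure D2:**
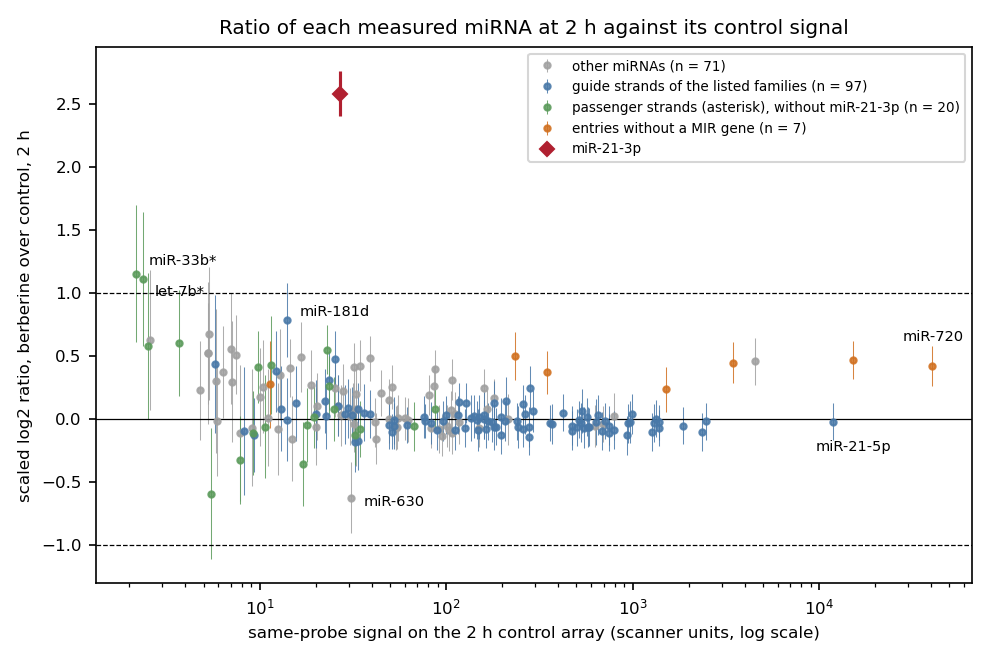
The scaled log2 ratio of berberine over control at 2 h (vertical axis, bars of 1 SE) is plotted for each of the 196 miRNAs against its same-probe signal in control cells (horizontal axis, scanner units on a log scale), with dashed lines at 2-fold. miR-21-3p lies at 2.59, the 2 other points above 2-fold are the dimmest of the plot, the guide strands gather at 0, and 7 entries without a MIR gene lie above 0 from 0.24 to 0.50.

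The seed families were next compared, since a change in 1 family would reach a common set of targets. A list of 122 miRNAs in 56 groups was used, of which 121 were on the array and 98 were measured. Of its 26 groups with at least 2 measured members, 25 were seed families and 1, miR-483, held both arms of 1 hairpin, for which no seed was at hand. Of the 25 seed families, 24 had a summed ratio within 0.15 of 0 and 1 lay beyond its error. The summed ratio of the arms of miR-483 was 0.20 (SE 0.14). In every one of the 27 families with at least 2 sequences in the RefSeq table the members shared 1 seed.

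let-7, a family known as a brake on proliferation, had 8 of its 9 members measured. Their summed signal was 1563 in control and 1063 in berberine-treated cells, a scaled log2 ratio of -0.03 (SE 0.08), and the members ran from -0.08 for let-7g to 0.31 for let-7b. The family of miR-17, miR-20, miR-93 and miR-106b, known to promote growth, summed to 5827 and 3988, a ratio of -0.02 (SE 0.08), with its 5 measured members between -0.09 and 0.06. miR-29, which targets collagen mRNAs, summed to 2274 and 1549, a ratio of -0.03 (SE 0.10), and its 3 members lay within -0.04 to -0.02. These 3 sums lay within their errors of 0. miR-192 and miR-215, a family abundant in liver and gut, summed to 1976 and 1307, a ratio of -0.07 (SE 0.11). The family of miR-15 and miR-16, whose targets include BCL2, gave -0.04 (SE 0.10), miR-30 gave -0.01 (SE 0.08), and the family of miR-130, miR-301 and miR-454 gave -0.01 (SE 0.08).

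miR-181 was the family beyond its error. The summed signal of its 3 measured members was 40.3 in control and 37.6 in berberine-treated cells, a scaled log2 ratio of 0.43 (SE 0.18). miR-181a measured 14.0 ± 1.80 and 9.71 ± 1.86 on 1 probe, a ratio of -0.0049 (SE 0.33). miR-181b measured 12.2 ± 1.66 and 11.0 ± 1.93 on 1 probe, a ratio of 0.38 (SE 0.32). miR-181d measured 14.1 ± 1.88 and 16.9 ± 2.55 on 2 probes, a ratio of 0.79 (SE 0.29), and it was the guide strand with the highest ratio. miR-181c had no probe above its limit on both arrays. The call does not hold with the total signals as deposited, which count probes of miR-181a and miR-181b that passed the limit in control cells alone. The family was then at -0.03, with miR-181a at -0.56, miR-181b at -0.38 and miR-181d at 0.79. The mature miR-181b and miR-181d differ at 1 of 23 positions, and their ratios differed by 0.41 (SE 0.43). All 3 members were dim, the spots of miR-181d overlapped between the arrays at both probes, and at 4 h the ratio of the family was 0.04.

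miR-320 had the second highest summed ratio of the families with at least 3 measured members, at 810 in control and 593 in berberine-treated cells and a ratio of 0.08 (SE 0.08). Its members miR-320a, miR-320b, miR-320c and miR-320d had ratios of 0.13 (SE 0.16), 0.12 (SE 0.15), 0.03 (SE 0.19) and 0.04 (SE 0.15). At the other end, the family of miR-200b, miR-200c and miR-429, which maintains the epithelial state by repressing ZEB1 and ZEB2, summed to 530 and 354, a ratio of -0.05 (SE 0.12). miR-200c was the lowest of it, at 32.6 ± 3.45 and 19.9 ± 2.55 and a ratio of -0.18 (SE 0.24), followed by miR-429 at -0.07 (SE 0.15) and miR-200b at -0.04 (SE 0.16). The family of miR-99 and miR-100 summed to 118 and 79.3, a ratio of -0.05 (SE 0.13), with miR-99a at -0.18 (SE 0.23), miR-100 at -0.10 (SE 0.51) and miR-99b at 0.01 (SE 0.17). None of these members lay beyond their error.

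**Figure D3:**
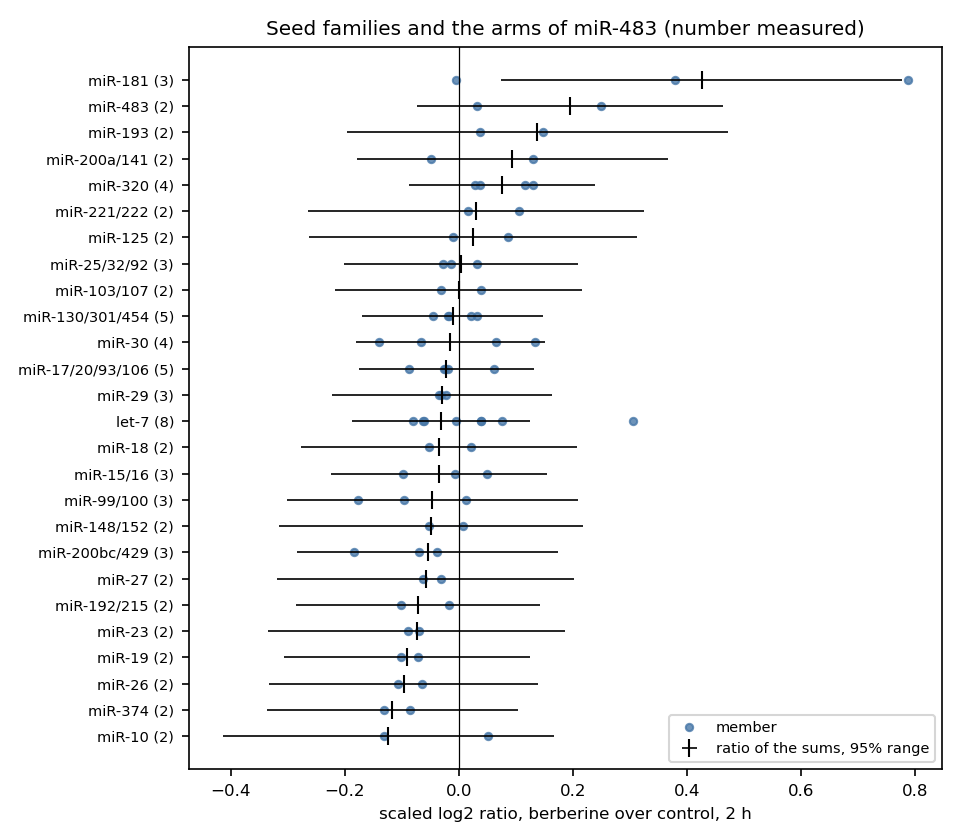
Blue points are the scaled log2 ratios of single family members at 2 h, and black ticks with bars are the ratio of the summed signals with its 95% range, for the 25 seed families with at least 2 measured members and for miR-483, whose points are both arms of 1 hairpin. The bar of miR-181 alone does not cross 0, and among the members of the other families let-7b lies at 0.31.

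Near-identical family members can share hybridisation on an array. Of 59 pairs of measured family members of equal length, 26 differed at no more than 2 positions, and their log2 ratios differed by a median of 0.066 and by at most 0.41, the pair of miR-181b and miR-181d. None of the 59 pairs differed beyond their error, the widest being miR-181a and miR-181d at 0.79. How much of this likeness is shared hybridisation was not tested.

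Cluster members were compared because they can share a primary transcript. Only mature miRNAs were measured, so the ratios do not show whether transcription changed within 2 h. Of 23 genomic clusters with at least 2 measured members that no other locus makes, 20 had a summed ratio within 0.15 of 0. The 4 named here had at least 3 members each. The MIR17 to MIR92A1 cluster summed to 5813 in control and 3938 in berberine-treated cells, a ratio of -0.04 (SE 0.08). Its guide strands miR-17, miR-18a, miR-19a and miR-20a had ratios of -0.02, -0.05, -0.07 and -0.02, although they belong to 3 seed families. Its passenger strands were dimmer and more scattered, with miR-17* at -0.06 (SE 0.19), miR-20a* at -0.36 (SE 0.33) and miR-19b-1* at -0.33 (SE 0.35). miR-19b, which another locus also makes, was at 2364 ± 177 and 1531 ± 114, a ratio of -0.10 (SE 0.15).
The MIR99B, MIRLET7E and MIR125A cluster of chromosome 19, within SPACA6, summed to 313 and 213, a ratio of -0.03 (SE 0.10), with miR-99b at 0.01, let-7e at -0.06 and miR-125a-5p at -0.01. The MIR182, MIR96 and MIR183 cluster of chromosome 7 summed to 257 and 177, a ratio of -0.01 (SE 0.12), with miR-182 at -0.13, miR-96 at 0.02 and miR-183 at -0.10. The MIR200B, MIR200A and MIR429 cluster of chromosome 1 summed to 678 and 472, a ratio of 0.00 (SE 0.10), with miR-200a at 0.13 (SE 0.17). No guide strand in these 4 clusters lay beyond its error.
The 2 clusters beyond their error had 2 measured members each. MIR939 and MIR1234, both within the interval of CPSF1 on chromosome 8, summed to 48.5 and 45.7, a ratio of 0.44 (SE 0.16). MIR494 and MIR487B, of the imprinted region of chromosome 14, summed to 117 and 100.4, a ratio of 0.30 (SE 0.15). In both, the sum before scaling was lower with berberine than in control. Scaled to the median signal, the MIR494 and MIR487B cluster was at 0.29, which is within its error.

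**Figure D4:**
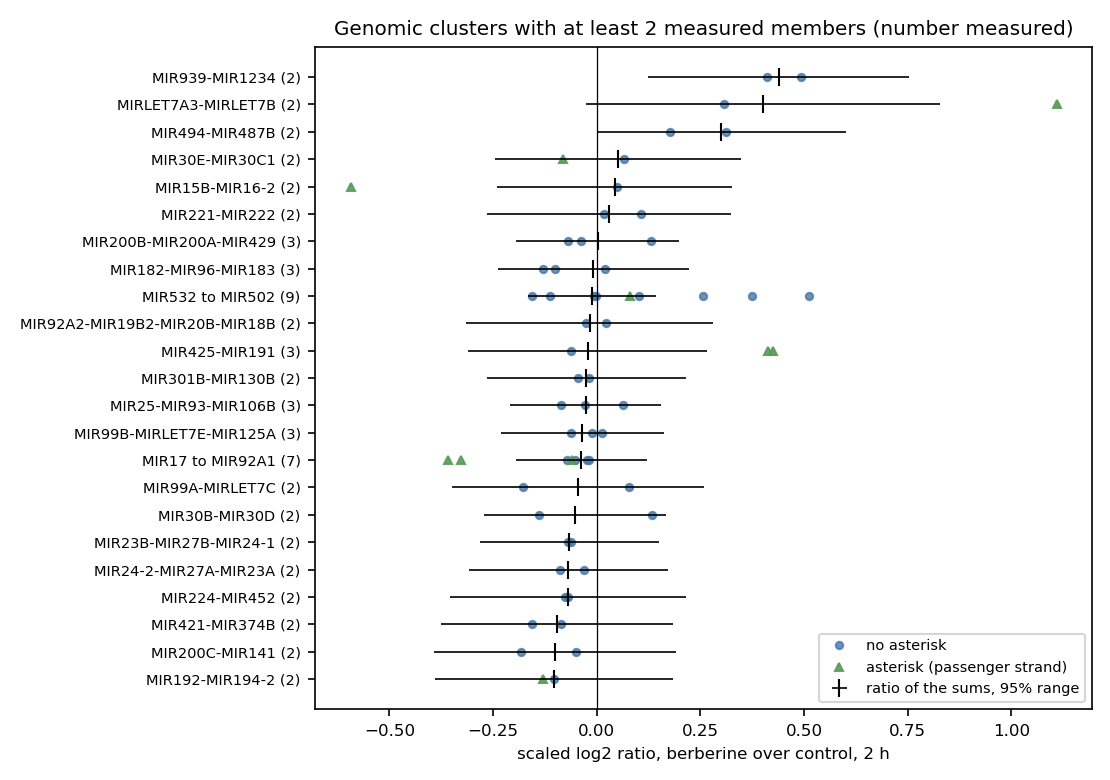
Points are the scaled log2 ratios of single cluster members at 2 h, as circles for names without an asterisk and triangles for passenger strands, and black ticks with bars are the ratio of the summed signals with its 95% range. Of the 23 sums, 20 lie within 0.15 of 0, and single members depart further, such as let-7b* at 1.11 and miR-16-2* at -0.59.

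The names with an asterisk, taken as passenger strands, did not as a group follow miR-21-3p. Of the 170 names with an asterisk other than miR-21-3p, 20 were measured, with a median ratio of 0.05 against 0.012 for all 196 miRNAs, and 9 of the 20 (45%) lay within 0.15 of 0 against 68.9% of all. Another 15 names with an asterisk were detected on the control array alone and 1 on the berberine array alone, and these have no ratio. The 20 measured were dimmer, with a median control signal of 14.3 against 76.6 for all, and the ratios of dim miRNAs were the more scattered. With the total signals as deposited their median ratio was -0.12. Beyond their error were 3 of the 20, miR-33b*, let-7b* and miR-150*, against 8.16% of all. miR-150* measured 22.8 ± 2.12 and 23.2 ± 2.31, a ratio of 0.55 (SE 0.20), so that its unscaled signal was 1.02 times the control. The other arm of its hairpin, miR-150, was detected on neither array at 2 h, so miR-150* is a passenger strand by name only. Both arms of 22 hairpins were measured. In 21 of them the difference between the dimmer and the brighter arm had a median of -0.03 and ran from -0.34 to 0.80, within its error in each. In the hairpin of miR-21 that difference was 2.61 (SE 0.23).

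A set of array entries without a miRNA gene had ratios unlike those of the guide strands. The list was made after the values were seen and holds the 7 measured array entries, of 26 on the array, whose name has no MIR gene in the RefSeq table. They are miR-720, miR-1274a, miR-1274b, miR-1280, miR-1308, miR-1826 and miR-923, names since withdrawn from the miRNA registry as fragments of tRNA or rRNA. miR-720 measured 40425 ± 3103 in control and 37658 ± 2902 in berberine-treated cells, an unscaled fold of 0.93 and a scaled log2 ratio of 0.42 (SE 0.16). miR-1274b measured 15159 ± 1117 and 14583 ± 1077, a ratio of 0.47 (SE 0.15). miR-1274a measured 3455 ± 281 and 3278 ± 265, a ratio of 0.45 (SE 0.17). The unscaled signals of these 3 were close to those of the control. miR-923 measured 1511 ± 132 and 1238 ± 110, a ratio of 0.24 (SE 0.18). All 7 were above 0, with a median of 0.42 and a range of 0.24 to 0.50, and 5 of the 7 lay beyond their error, against 8.16% of all miRNAs. By contrast, the 97 guide strands of the listed families, among which both arms of miR-483 were counted, had a median of -0.02, 89 of them (91.8%) lay within 0.15 of 0, and 2 lay beyond their error upward, miR-181d and miR-197.
The direction rests on the scaling. Without scaling, the 7 entries had a median fold of 0.93 (0.82 to 0.98) and the guide strands a median fold of 0.69, so these entries were nearly alike on both arrays while the guide strands were dimmer on the berberine array. Scaled to the median signal, the 7 entries had a median of 0.41, and with quantile normalization it was 0.00. Quantile normalization sets each value by its rank alone, and the brightest of these entries held the same rank on both arrays. Their ratio is then 0 whatever their signals, so that median cannot show whether they shifted. At 4 h, where the berberine array was the brighter one, with a 75th percentile of 297 against 225, the guide strands had an unscaled median fold of 1.43 and the 7 entries 1.13, and the scaled median of the 7 entries was -0.22. Between the control arrays the scaled median of the 7 entries was -0.01. Array brightness moved with this difference at both times, and its part in the result was not tested.
miR-1260, which has a MIR gene in the table, measured 4536 ± 418 and 4332 ± 399, a ratio of 0.46 (SE 0.19). Of the 16 miRNAs higher beyond their error, the 12 that were neither past 2-fold nor miR-181d had unscaled folds between 0.90 and 1.02. They include miR-1202, miR-1305, miR-1268, miR-939 and miR-197, with ratios between 0.40 and 0.48. Over the 126 measured miRNAs with a RefSeq sequence, the ratio rose with GC content, with a Spearman correlation of 0.48, and of 0.39 in the 72 of them in the upper part of the signal. These are descriptions across miRNAs of 1 pair of arrays, which share both arrays and their scaling. The third with the lowest GC content had a median ratio of -0.04 and the third with the highest 0.13.

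**Figure D5:**
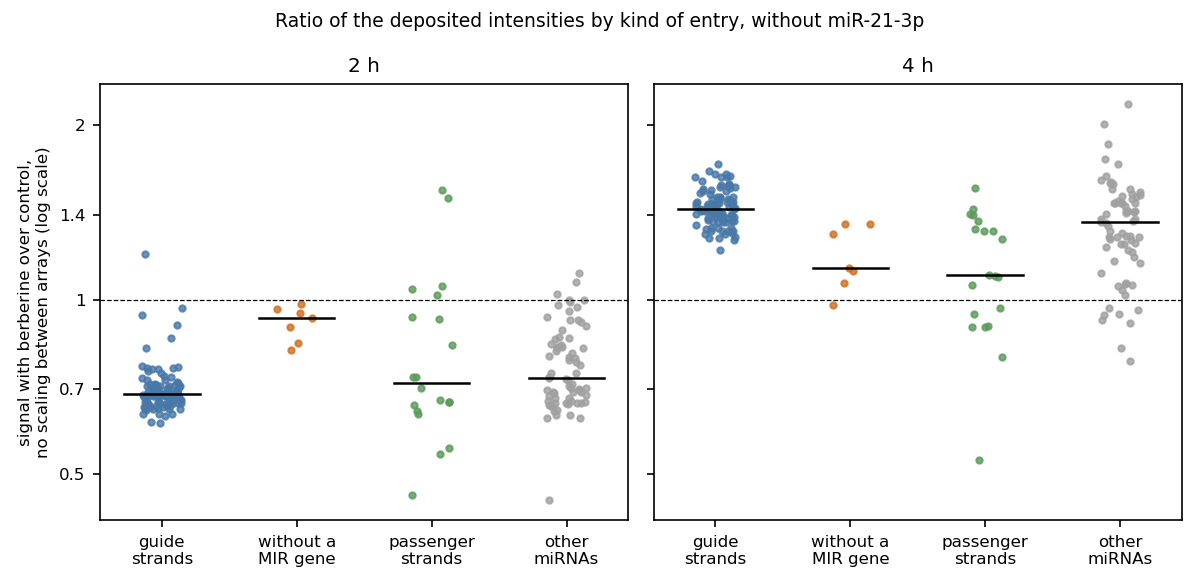
Points are the ratios of deposited intensity with berberine over control without scaling (log axis), at 2 h and at 4 h, for guide strands, entries without a MIR gene, passenger strands and other miRNAs, with a line at each median and without miR-21-3p. The guide strands lie at 0.69 at 2 h and at 1.43 at 4 h, and the entries without a MIR gene stay nearer to 1, at 0.93 and 1.13.

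Among the other bright miRNAs named for their control signal, miR-20a measured 2476 ± 180 and 1699 ± 124, a scaled ratio of -0.02 (SE 0.15). miR-148a, a miRNA of differentiated hepatocytes, measured 1870 ± 133 and 1253 ± 89.7, a ratio of -0.05 (SE 0.15). miR-19a measured 1393 ± 99.5 and 921 ± 65.9, a ratio of -0.07 (SE 0.15). None of these 3 lay beyond its error.

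The single miRNA lower beyond its error was miR-630, from a hairpin within ARIH1. It measured 30.9 ± 2.70 in control and 13.9 ± 2.45 in berberine-treated cells, a ratio of -0.62 (SE 0.28). Its 2 probes gave -0.67 and -0.58. At the second probe 1 berberine spot, at 14.3 percent of the 75th percentile, lay above all control spots, and at the first all 8 berberine spots, between 6.31 and 9.16, lay below the control spots, between 10.3 and 13.5. At 4 h it measured 14.5 in control and 31.5 in berberine-treated cells. Between the control arrays alone its scaled log2 ratio of 4 h over 2 h was -0.98, a step larger than the one between treatments at 2 h. With normexp background correction the ratio at 2 h was 0.13.

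The miRNAs detected on 1 array only had low signals. On the control array alone 38 miRNAs were detected, with signals from 1.79 to 10.72 and 27 of them on 1 probe. The brightest was miR-219-5p at 10.72 ± 1.77, followed by miR-221* at 9.89 ± 1.74 and miR-550 at 9.67 ± 1.23. Each was set against a limit on the berberine array, the highest of 3 times the errors of its probes, the signal of those probes and the lowest total signal detected on that array, which was the limit for 10 of the 38. After scaling, 33 of the 38 gave no lower bound above 1, miR-219-5p, miR-221* and miR-550 among them. The other 5 gave bounds of 1.11-fold to 1.35-fold lower with berberine, the largest being miR-130b*. These bounds take the detected signal as measured and leave out its error, so a smaller difference is possible. At 4 h, 36 of the 38 were detected in berberine-treated cells. On the berberine array alone 2 miRNAs were detected, miR-589* at 4.28 ± 0.989 and miR-1227 at 2.81 ± 0.890, each on 1 of 4 probes. Against the lowest total signal detected on the control array, their bounds were 3.44-fold and 2.25-fold higher. These again leave out the error of the signal, which is large beside signals this low. Neither miRNA was detected in berberine-treated cells at 4 h. The excess on the control array rests on the rule of detection. Where at least 1 spot well above background was asked for instead, 83 miRNAs were detected on the control array alone and 123 on the berberine array alone.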

How the data were processed

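Total RNA of HepG2 cells was labelled with Cy3 and hybridised to 1 Agilent human miRNA array per condition, all on 1 slide. The authors deposited the output of Feature Extraction 10.7.3.1 (per the file headers and the submitters' processing notes) with a background-subtracted intensity per spot, probe and miRNA that is not scaled between arrays. No spot was saturated, and precision is limited by having 1 array per condition. The deposited table of the whole series holds the authors' own ratios of berberine over control and was not used. It left 0 columns of per-sample values unused.

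For each human miRNA the probes above 3 times their error on both 2 h arrays were summed, and the log2 ratio of berberine over control was corrected by the difference of the log2 75th percentiles of total signal over those 197 human miRNAs that every array detected. The SE came from the probe errors of the software, added in quadrature as if independent. A 95% range was taken from the SE as for a normal error, and the fold boundary of 2 is that of the study. No test was made. The calculation was run on simulated data. The noise there followed the errors handed to the calculation, so the run cannot show whether the software's errors fit these arrays. Ratios of sums over families and clusters used miRNAs with measured ratios. Clusters were MIR genes on 1 chromosome and strand with starts within 10 kb, from the RefSeq tables of GRCh38.p14, while the file headers name an older build, so gene tables served for names and neighbours. Of the 122 listed miRNAs, 109 had a mature sequence there. Names ending in an asterisk were taken as passenger strands.

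The miRNAs named were both arms of miR-21, those past 2-fold, the 5 largest rises and 5 largest falls beyond their error, the 10 with the highest control signal, the members of the 2 highest and 2 lowest families and clusters with at least 3 measured members, and the 3 brightest detected on 1 array. Others were named after their values were seen. The members, lists and alternatives were chosen with earlier results of these data known. The alternatives were other scalings, probe summaries, filters, thresholds and detection rules, other cluster definitions, and normexp background correction with an offset of 50 in limma 3.58.1 (R 4.3.3) on the median spot signals. Analyses ran in Python 3.11.15 with pandas 2.3.3, numpy 2.4.6 and scipy 1.17.1, and plots were drawn with matplotlib 3.10.9.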

Additional observations from a re-analysis of the deposited data

Results flagged for a closer look

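miR-630 was lower with berberine at 2 h (log2 ratio -0.62) and higher at 4 h (0.72), each time beyond its error. The 4 h ratio minus the 2 h ratio was 1.34 (SE 0.39). miR-720 went the other way, higher at 2 h (0.42) and lower at 4 h (-0.43), again beyond its error at each time. Without scaling its fold was 0.93 at 2 h and 0.98 at 4 h, so the opposite directions come with the scaling. For miR-720 the scaled 4 h ratio minus the 2 h ratio was -0.85 (SE 0.22). These SEs are of measurement only. Having 1 array for each condition, the study allows no test of how the times differ, and the difference was not tested.

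Outside the human miRNAs, 3 of the 88 viral names on the array were measured at 2 h. ebv-miR-BART12 measured 7.32 in control and 10.6 in berberine-treated cells, a scaled log2 ratio of 1.06 (SE 0.29), which exceeded its error. Before scaling the log2 ratio was 0.54. The other viral names, given for comparison, were ebv-miR-BART13 at -0.41 (SE 0.22) and kshv-miR-K12-3 at 0.28 (SE 0.35). ebv-miR-BART13 measured 55.1 in control and 28.9 in berberine-treated cells. The study names no viral infection of these cells, and what the viral probes bound was not tested.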

How the results depend on the processing

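No paired analysis was possible because each condition had 1 array. miR-21-3p was above 2-fold under every alternative that kept it. Without scaling it was at 2.06, the median of all miRNAs at -0.51 and the passenger median at -0.48, with 1 miRNA past 2-fold higher and 2 lower, miR-630 and miR-16-2*. When the 75th percentile was taken over all human names, it fell on 0.1, the entry for no detection, on the berberine array, and miR-21-3p was at 7.69, the median at 5.12 and the passenger median at 5.15, with 196 higher. With normexp these were 1.38, 0.17 and 0.32, with 1 higher, and its offset of 50 exceeds the signals of dim miRNAs. With total signals as deposited the median was -0.020, 1 was higher and 1 lower, miR-33b* was at -0.46, let-7b* at -0.99 and the miR-181 family at -0.03. Quantile normalization gave 1 higher and 1 lower. Probes detected on at least 1 array and the brightest probe each gave 1 higher, the upper part of the signal gave 0 higher and a median of -0.019, and a 1.5-fold threshold gave 7 higher and 2 lower. With at least 1 spot well above background as the rule of detection, 83 miRNAs were detected on the control array alone and 123 on the berberine array alone, in place of 38 and 2. The 197 miRNAs detected on both 2 h arrays were also detected on both 4 h arrays, so the percentile over the 2 h arrays and the filter on all 4 arrays changed nothing by construction. Scaling to the median moved no family, cluster or named miRNA by more than its error. The cluster of MIR494 and MIR487B, beyond its error in the main setting, was then within it. The median of a family's members, miRNAs of several loci and a distance of 50 kb in clusters also moved none by more than its error. Leaving out the scaling moved all 26 listed groups and 23 clusters, by -0.52 each. The causes were not tested. The SE of a ratio, which covers measurement only, reached 0.58.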
